A study of Bos taurus with 16 samples.

Results

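Liver makes most of the proteins of the complement system and of blood coagulation, and 34 genes for such proteins were followed here in beef steers at different stages of growth. They comprise 16 complement genes and 18 genes of coagulation and fibrinolysis, and each was to be read from its probe set with the highest mean signal among those annotated with a single symbol. All 34 were measured, each by 1 probe set, among 18010 named genes on the arrays. No filter on low signals was used, and all 34 lay above 5.595, the median over all probe sets.

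The livers came from 16 weaned Angus steers, castrated males, that started at 209 ± 29.4 kg and were assigned at random to 2 groups of 8. The growing group ended at 301 kg and the finishing group at 576 kg. Both groups received the same diet based on cotton seed hulls, fed to each animal to hold its gain at 1.5 kg per day, with free water and a vitamin and mineral supplement. Weight and time on feed therefore differ together between the groups, age was not used here, and the comparison asks how the finishing liver differs from the growing liver. Values are log2 signals from 1 array per steer, so a difference of 1 is a doubling of the signal.

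Complement is a chain of plasma proteins, some of them proteases, that ends in a pore through the membrane of a target cell. Recognition proteins activate C1R and C1S or the MASP proteases, these build convertases that split C3 and then C5, and C6, C7, C8 and C9 assemble into the pore. Coagulation is a chain of proteases ending in thrombin, which turns fibrinogen into fibrin. Plasmin later dissolves the clot. Hepatocytes make most of both sets, and several members, among them C3, factor B and fibrinogen, are also acute phase proteins, whose production rises in inflammation.

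The arrays showed liver. The 14 measured hepatocyte markers averaged 12.43 to 12.54 in growing and 12.33 to 12.54 in finishing steers, with ALB, APOH and TF the brightest. By limma 1 of the 14 fell and 0 rose; 10 had negative differences, the lowest -0.56, and at an unadjusted p under 0.05 there were 4 lower and 1 higher. Arrays of a group correlated at 0.974 to 0.99. Finishing replicate 5 had the lowest signal of its group for 14 of the 34 genes, the most of any array, and growing replicates 2 and 4 for 10 and 9. Growing replicate 7 and finishing replicate 7 lay below their group mean for 29 and 27 genes, and finishing replicate 5 for 24. Some differences are given without finishing replicate 5 below, but not those of CFB, C6, C8A, F2, PROS1, F13B and PLG, for which it was also lowest. Precision is set by the 8 arrays of each group: the within-group SD had a median of 0.108 over the 34 genes and 0.192 over all probe sets.

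Most of both systems differed little between growing and finishing livers. Of the 34 genes, 2 fell in finishing steers and 0 rose by limma at an adjusted p under 0.05, and both that fell, C2 and C7, were complement genes. That is 5.88% of the members, against 6.64% of all 26773 probe sets (2.34% higher and 4.3% lower) and 8.36% of all named genes. The members' share is thus near these backgrounds. With a mean signal above 10, 1 of 27 members (3.7%) was called, against 12.8% of the 670 named genes above that level. This difference in shares was not tested. The complement genes alone had 2 of 16 lower (12.5%) and the coagulation genes 0 of 18. At an unadjusted p under 0.05 there were 7 members, 2 higher and 5 lower. With arrays centred on ribosomal protein genes, all probe sets split into 273 higher and 1792 lower in place of 626 and 1151. C2 and C7 passed there too. This centring moved every difference down by the same amount, so it is no check on genes that fall.

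Set side by side, the 16 complement genes had a median difference, finishing minus growing, of 0.03 on the log2 scale, with 11 positive and 5 negative. The 18 coagulation genes had a median of -0.03, with 7 positive and 11 negative. Over all named genes the median was 0.01. The median size of a difference, whatever its sign, was 0.06 for complement, 0.07 for coagulation and 0.11 for all named genes. Centring on ribosomal protein genes moved both medians down, to -0.05 and -0.11, and no test was made of one class against the other.

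The signals also set bounds on what could have been missed. For 29 of the 34 genes, the 95% interval of the difference lay wholly within a 1.3-fold change in either direction, a bound chosen after the values were seen. The exceptions were MASP1, C2 and C7 among complement genes and KLKB1 and F11 among coagulation genes. The same count was not made for all named genes, so whether the members' share exceeds the background is not known. The median size of a difference was 0.06 for the members and 0.11 for all named genes. From the difference to either end of its interval, the median distance was 0.13 for the members and 0.19 for all named genes. In no member were the groups free of overlap. Of the 18010 named genes, 218 (1.21%) had groups that did not overlap. With so small a share, the lack of such a gene among 34 does not set the members apart.

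**Figure D1:**
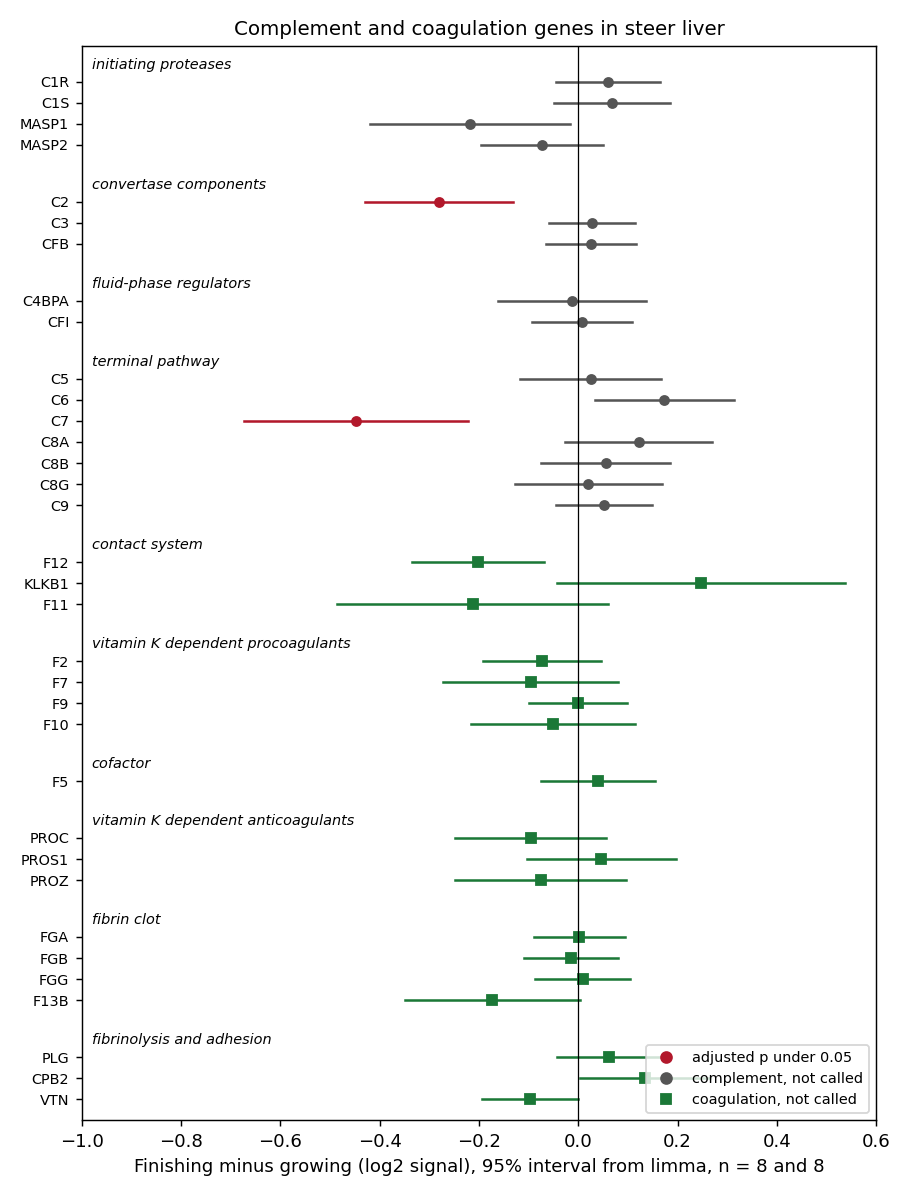
Difference between finishing and growing steers for each of the 34 genes on the log2 scale (points), with its 95% interval from limma (lines), grouped by the role of the protein. C2 and C7, in red, lie below 0; the widest interval is that of KLKB1, from -0.04 to 0.54.

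The first complement proteases showed no call. C1R and C1S, which together form the enzyme of the classical pathway, differed by 0.06 ± 0.05 and 0.07 ± 0.06 (SE, n = 8 per group; limma adjusted p = 0.528 and 0.524), and 7 of 8 finishing steers lay above the growing median for each. Finishing replicate 5 was lowest for both, and without it the differences were 0.08 and 0.10 (adjusted p = 0.372 and 0.263). MASP1, a protease of the lectin pathway, ran from 10.25 through a median of 10.44 to 10.68 in growing and from 9.71 through 10.28 to 10.45 in finishing steers. Its low end was again finishing replicate 5. The MASP1 difference was -0.22 ± 0.10 (adjusted p = 0.192) and became -0.14 without that steer (adjusted p = 0.28). MASP2, which cleaves C4 and C2 in the lectin pathway, differed by -0.07 ± 0.06 (adjusted p = 0.513), though all 8 finishing steers lay below the growing median.

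C2 was the convertase component that fell. C2 is cut by C1S or MASP2 and supplies the protease of the C3 convertase shared by the classical and lectin pathways. Its signal ran from 11.31 through a median of 11.62 to 11.76 in growing steers and from 11.11 through 11.34 to 11.44 in finishing steers. All 8 finishing steers lay below the growing median and 6 of 8 growing steers above every finishing steer, while growing replicates 2 and 7, at 11.31 and 11.43, fell inside the finishing range. C2 fell by 0.28 ± 0.07 (log2, SE; 8 steers in each group), a 1.22-fold higher signal in growing steers, with a limma adjusted p of 0.0236. The adjusted p of C2 was 0.0504 when growing replicate 8 was removed and 0.0748, with a difference of -0.25, when finishing replicates 5 and 6 were removed together; the call held without finishing replicate 5 alone (-0.25, adjusted p = 0.0443).

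For factor B (CFB) and C3 the groups covered nearly the same range. CFB, the counterpart of C2 in the alternative pathway, is its direct neighbour in the bovine gene table. CFB ran from 12.87 through 12.90 to 12.98 in growing and from 12.88 through 12.94 to 12.98 in finishing steers, a difference of 0.03 ± 0.04 with a 95% interval from -0.07 to 0.12 (limma adjusted p = 0.789). The interval of C2 ran from -0.43 to -0.13, and the difference between the neighbours was not tested. C3, the central component that every pathway splits, ran from 13.56 through 13.59 to 13.65 and from 13.58 through 13.63 to 13.65, a difference of 0.03 ± 0.04 (adjusted p = 0.76). Its within-group SDs of 0.03 and 0.02 were among the smallest of the members. The signal of C3 lay close to the highest value on the arrays, 14.1, and whether the scale is compressed there was not tested. The regulators C4BPA, a chain of the C4b-binding protein, and CFI, the protease that inactivates C3b and C4b, differed by -0.01 ± 0.07 and 0.0079 ± 0.05 (adjusted p = 0.943 and 0.947).

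C7 had the largest difference of the 34 genes and was the only called member of the terminal pathway. C7 joins the complex of C5b and C6 and lets it insert into the membrane; in humans it is made by other cells as well as by hepatocytes. Its signal ran from 8.19 through a median of 8.56 to 8.84 in growing steers and from 7.83 through 8.08 to 8.48 in finishing steers. In finishing livers 6 of 8 steers were below every growing steer, and the remaining 2, replicates 4 and 7 at 8.48 and 8.34, overlapped with growing replicates 4, 5 and 8. C7 fell by 0.45 ± 0.11 (SE, n = 8 per group; limma adjusted p = 0.019), a 1.36-fold higher signal in growing steers, with a 95% interval of the difference from -0.67 to -0.22. The call held in each of the 16 fits that left out 1 array (adjusted p from 0.00991 to 0.0389) and was lost without finishing replicates 5 and 6 together (-0.41, adjusted p = 0.0729). In these whole-liver samples, fewer cells of a type and less RNA per cell cannot be told apart.

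The other terminal components had positive differences that did not pass the test. C6, which stands beside C7 in the complex, ran from 11.80 through 11.99 to 12.10 in growing and from 11.97 through 12.10 to 12.37 in finishing steers. Here 4 of 8 finishing steers were above every growing steer, the difference was 0.17 ± 0.07, and its unadjusted p of 0.0181 became an adjusted p of 0.133 by limma. The 3 chains of C8 differed by 0.12 ± 0.07 for C8A, 0.05 ± 0.06 for C8B and 0.02 ± 0.07 for C8G (adjusted p = 0.34, 0.663 and 0.902). C8B was 0.09 without finishing replicate 5 and 0.02 without growing replicate 4, and C8G was 0.05 and 0.0092 (adjusted p from 0.43 to 0.961). C9, which polymerises to form the pore, differed by 0.05 ± 0.05 and C5, whose cleavage starts the assembly, by 0.02 ± 0.07 (adjusted p = 0.559 and 0.875); C5 was 0.05 without either finishing replicate 5 or growing replicate 4. Of the 7 terminal genes, 6 had positive differences, with a median of 0.05; centred on ribosomal protein genes, those of C5, C8B, C8G and C9 turned negative.

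**Figure D2:**
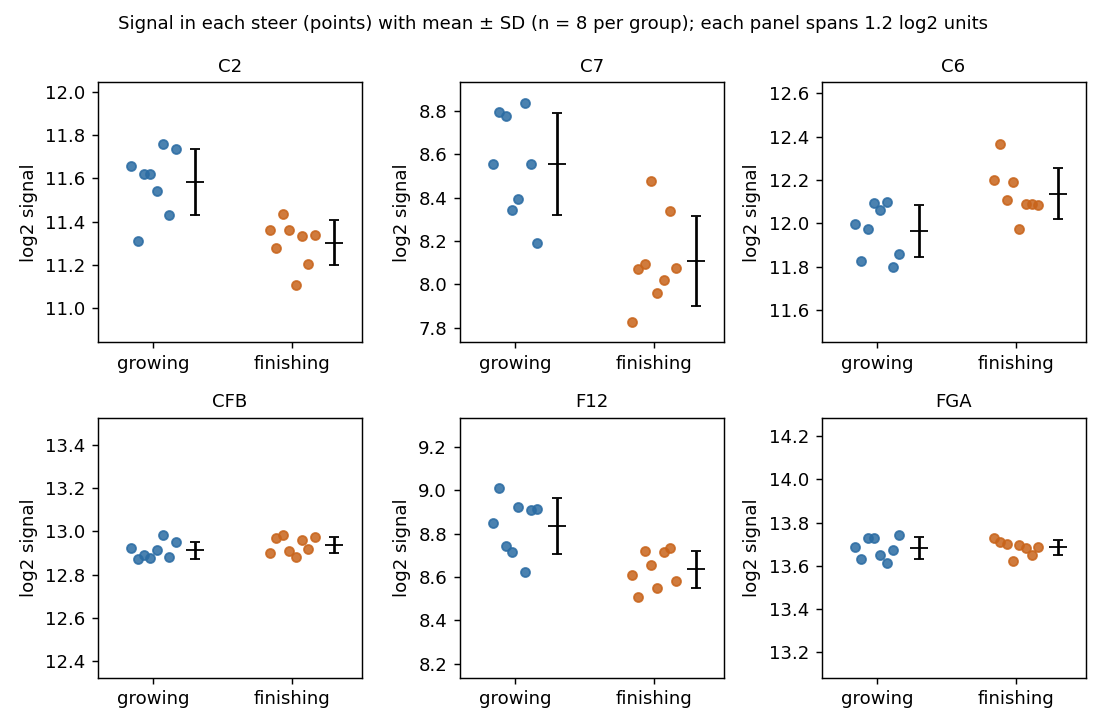
Log2 signal of 6 genes in each steer (points) with the mean and SD of each group (n = 8), every panel drawn over the same span of the log2 scale. C2 and C7 sit lower in finishing steers with some overlap, C6 and F12 shift without passing the test, and CFB and FGA lie level.

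Markers of some other cell types fell in finishing steers. The called share was 76.9% of stellate cell and fibroblast, 46.2% of macrophage and 42.9% of T and NK cell markers, against 8.36% of all named genes. Of 13 measured stellate cell and fibroblast markers 10 fell and 0 rose, and their mean per array was 7.79 to 8.00 in growing and 7.22 to 7.45 in finishing steers. The brightest of them, SPARC, DCN and LUM, fell by 0.82, 0.41 and 0.97, without overlap between groups. Of 13 Kupffer cell and macrophage markers 6 fell and 0 rose (8.98 to 9.53 against 8.17 to 9.32), and 2 had positive differences, the highest 0.48. The brightest, C1QB, C1QC and CD5L, differed by -0.38, -0.47 and -0.10 and did not pass (adjusted p = 0.0657, 0.0742 and 0.669). Of 14 T and NK cell markers 6 fell and 0 rose (5.61 to 6.31 against 5.21 to 5.71). Of 15 endothelial markers 2 fell and 0 rose (8.40 to 8.60 against 8.23 to 8.57), a called share of 13.3%, and 6 had positive differences. The lowest stellate marker was HAND2, at a mean of 5.55, the lowest macrophage marker MSR1, at 6.78, and the lowest T and NK cell marker GZMA, at 3.42; the table holds no detection calls. The part of these cells in the differences of C2 and C7 was not tested. Platelet and neutrophil markers had 0 calls of 10 and 0 of 9 by limma (1 and 2 at an unadjusted p under 0.05).

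No coagulation gene passed the test. Of the 18, limma called 0, with 3 at an unadjusted p under 0.05, CPB2 higher and F12 and VTN lower. F12 came nearest. Factor XII, the protein of F12, starts the contact pathway. F12 ran from 8.62 through 8.88 to 9.01 in growing and from 8.51 through 8.63 to 8.73 in finishing steers. All 8 finishing steers lay below the growing median and 6 of 8 growing steers above every finishing steer, with growing replicates 4 and 6 inside the finishing range. The F12 difference was -0.20 ± 0.06 (limma adjusted p = 0.0652). It passed when dim probe sets were left out (0.0337), when only annotated probe sets were tested (0.0492), with array weights (0.0336), after centring on ribosomal protein genes (0.0224) and without growing replicate 6 (0.0366). Both filters leave the F12 difference as it was and change only which probe sets are tested with it. Ribosomal centring moves every difference down, so these passes are not separate support for a fall.

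The other contact genes, KLKB1 and F11, were among the most variable members. KLKB1 encodes prekallikrein, which factor XII activates, and F11 encodes factor XI, the next protease of the pathway. KLKB1 ran from 8.01 through 8.83 to 9.21 in growing and from 8.75 through 8.92 to 9.45 in finishing steers, a difference of 0.25 ± 0.14 (adjusted p = 0.322). F11 ran from 9.30 through 9.61 to 9.70 in growing and more widely, from 8.90 through 9.36 to 9.80, in finishing steers, a difference of -0.21 ± 0.13 (adjusted p = 0.367). Finishing replicates 1, 2 and 5 had F11 signals of 8.90, 9.10 and 8.94, below every growing steer, while finishing replicates 3 and 4, both at 9.80, were above every growing steer. The SD of F11 was 0.15 in growing and 0.36 in finishing steers.

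Vitamin K dependent factors, which need a carboxylated domain to bind membranes, differed little. Prothrombin (F2) differed by -0.07 ± 0.06, F7 by -0.10 ± 0.08, F9 by -0.00066 ± 0.05 and F10 by -0.05 ± 0.08, with adjusted p from 0.495 to 0.996 by limma; F10 was -0.02 without finishing replicate 5. F7, which starts the extrinsic pathway with tissue factor, had the lowest signal of the 34 genes, with means of 6.48 and 6.39. The anticoagulants PROC (protein C), its cofactor PROS1 (protein S) and PROZ (protein Z) differed by -0.10 ± 0.07, 0.05 ± 0.07 and -0.08 ± 0.08 (adjusted p = 0.481, 0.764 and 0.648). F5, the cofactor of factor X in making thrombin, differed by 0.04 ± 0.05 (adjusted p = 0.738), with finishing steers spread from 12.34 to 12.63 around growing steers at 12.37 to 12.52.

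FGA, FGB and FGG, which encode the 3 chains of fibrinogen, gave differences close to 0. FGA ran from 13.61 through 13.68 to 13.74 in growing and from 13.62 through 13.69 to 13.73 in finishing steers. FGB ran from 13.40 through 13.48 to 13.53 and from 13.39 through 13.46 to 13.52, and FGG from 13.35 through 13.41 to 13.48 and from 13.35 through 13.43 to 13.48. The groups overlapped almost entirely for each chain. The differences were 0.0023 ± 0.04, -0.02 ± 0.05 and 0.0085 ± 0.05 (limma adjusted p = 0.985, 0.884 and 0.939), and the 95% intervals allowed changes between 0.93-fold and 1.07-fold. These signals lay close to the highest value on the arrays, 14.1, and only 1 named gene was brighter than FGA. Of the 17 named genes with a mean above 13, limma called 0 (3 at an unadjusted p under 0.05). KNG1, with group means of 13.07 and 12.92, lay just under that cut and was called lower (limma adjusted p = 0.0434, held in 3 of 16 fits that left out 1 array). Whether the scale is compressed at such signals was not tested. F13B, the carrier subunit of the fibrin crosslinking factor XIII, differed by -0.17 ± 0.08 (adjusted p = 0.239), with 7 of 8 finishing steers below the growing median.

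The genes of fibrinolysis and adhesion gave small differences of both signs. Plasminogen (PLG), the precursor of plasmin, differed by 0.06 ± 0.05 (adjusted p = 0.518). CPB2, a carboxypeptidase that slows fibrinolysis, ran from 11.37 through 11.51 to 11.70 in growing and from 11.50 through 11.64 to 11.79 in finishing steers, a difference of 0.13 ± 0.06 (adjusted p = 0.217). Vitronectin (VTN), which binds the inhibitor of plasminogen activation and also the terminal complement complex, ran from 13.26 through 13.36 to 13.43 in growing and from 13.17 through 13.27 to 13.31 in finishing steers. In VTN 7 of 8 growing steers lay above every finishing steer, yet the difference was only -0.10 ± 0.05 (limma adjusted p = 0.225). Growing replicate 4, at 13.26, was the exception.

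**Figure D3:**
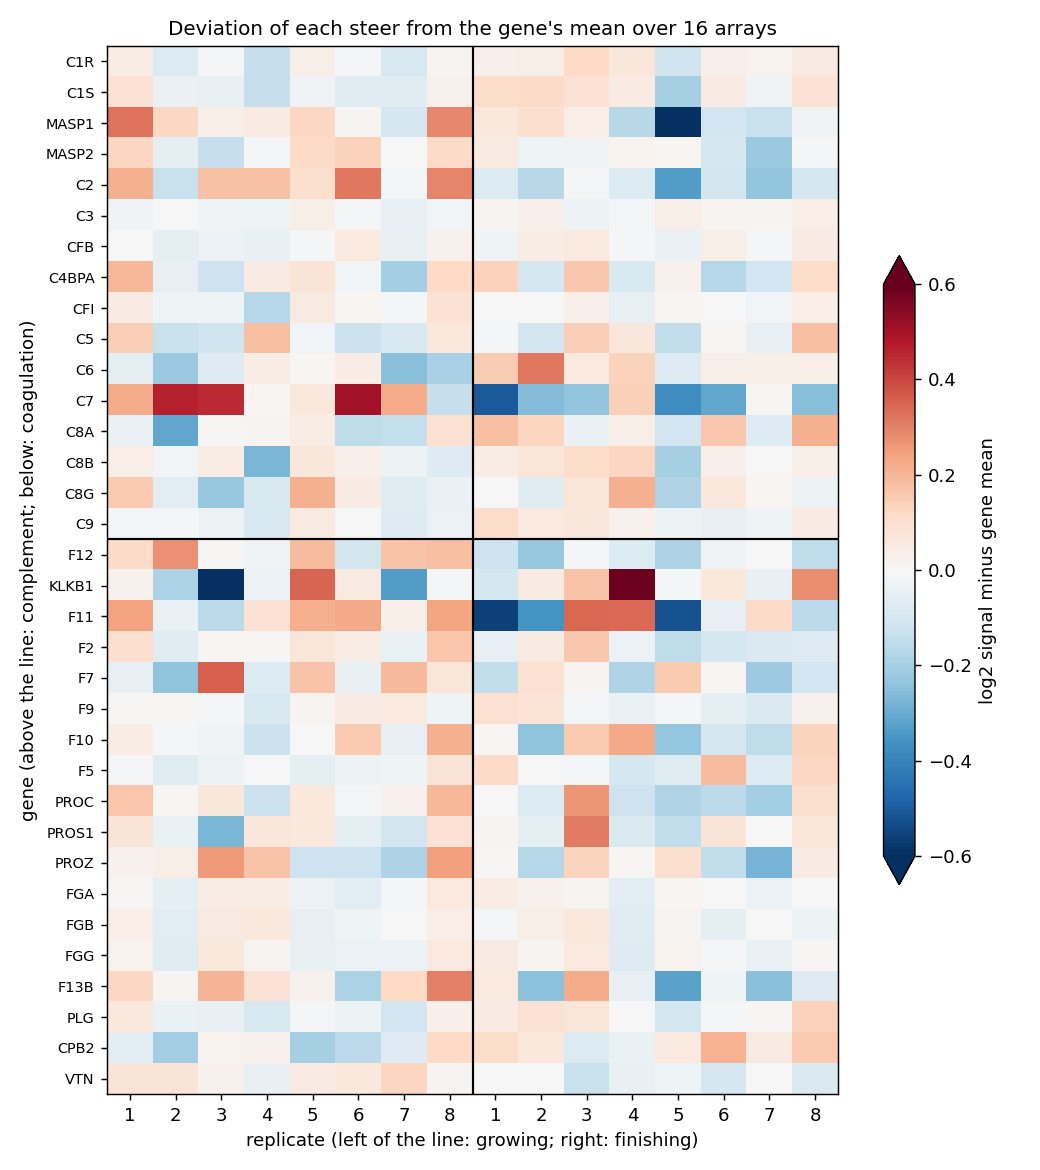
Log2 signal of the 34 genes in each of the 16 steers, as the deviation from that gene's mean over all arrays (red above, blue below), with complement genes above the horizontal line and growing steers left of the vertical line. C7 and C2 are red in most growing and blue in most finishing steers, finishing replicate 5 is a blue column among complement genes, and C3, CFB and the fibrinogen genes stay near white.

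Some neighbouring genes varied together from steer to steer, as did some members that are not neighbours. Several members lie next to each other in the RefSeq table of the bovine genome, with no other protein coding gene between them: C1R and C1S, CFB and C2, C8B and C8A, KLKB1 and F11, the trio F7, F10 and PROZ, and the trio FGG, FGA and FGB. After each group's mean was removed, the 10 pairs within these clusters were correlated over 16 arrays, with a 2-sided permutation test that shuffled steers within groups (100000 permutations). Points of a pair share the array, so array quality enters both.

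FGG and FGA, of the fibrinogen trio, had a Pearson r of 0.901 and a Spearman rho of 0.9 (permutation p = 2e-05 and 3e-05, adjusted over 10 pairs 0.0002 and 0.0003), with r = 0.895 in growing and 0.929 in finishing steers and 0.856 without the 2 steers farthest from the median. FGG with FGB gave r = 0.815 and rho = 0.803 (permutation p = 0.00044 and 0.00069, adjusted 0.00213 and 0.00345; 0.708 without the 2 farthest), and FGA with FGB r = 0.765 and rho = 0.782 (permutation p = 0.00142 and 0.00107, adjusted 0.00298 and 0.00357; 0.714). These steer to steer shifts were small, with SDs of 0.03 to 0.05.

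C1R and C1S had r = 0.815 and rho = 0.644 (permutation p = 0.00064 and 0.0087, adjusted 0.00213 and 0.02), and r was 0.53 without the 2 steers farthest from the median. CFB and C2 had r = 0.687 and rho = 0.635 (permutation p = 0.00448 and 0.012, adjusted 0.00747 and 0.02; 0.569 without the 2 farthest), so steers with more C2 for their group tended to have more CFB, although only C2 passed the test between groups. KLKB1 and F11, whose group differences had opposite signs, had r = 0.601 and rho = 0.606 (permutation p = 0.00149 and 0.0116, adjusted 0.00298 and 0.02; 0.644). C8B and C8A had r = 0.112 and rho = -0.0147 (permutation p = 0.697 and 0.962). In the F7, F10 and PROZ trio r lay between -0.276 and 0.309 and rho between -0.268 and 0.276 (permutation p from 0.237 to 0.587).

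**Figure D4:**
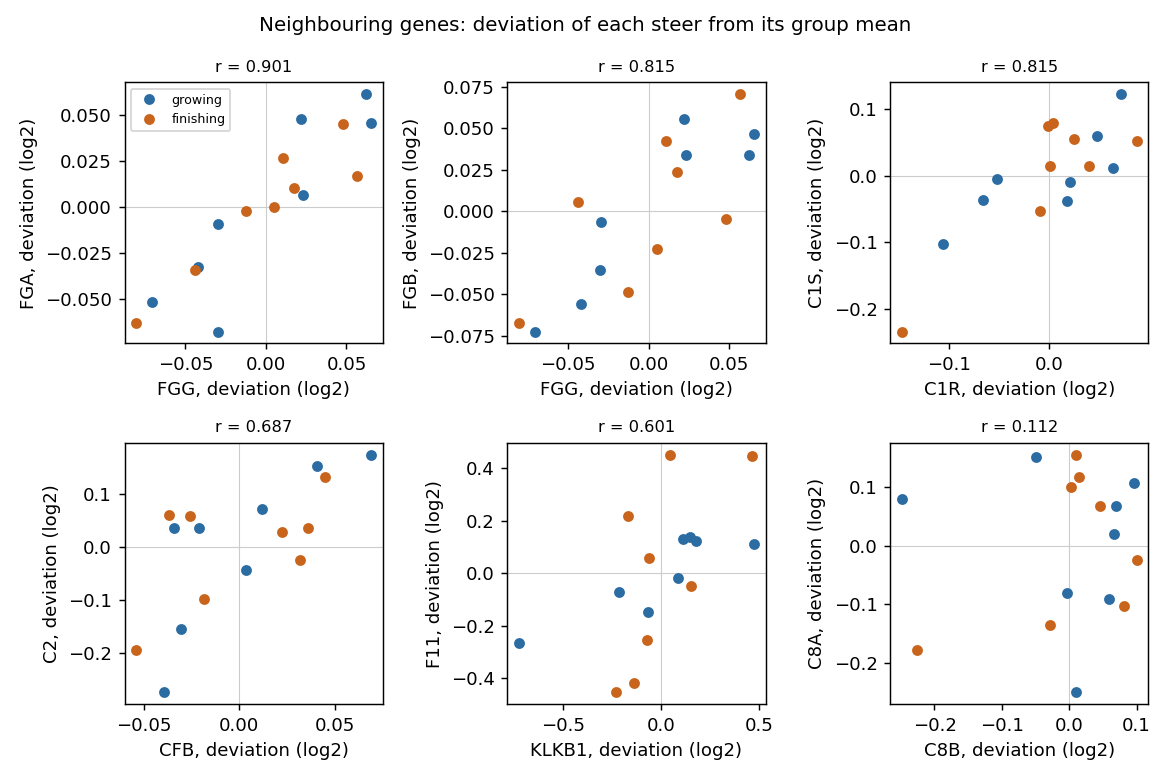
Deviation of each steer from its group mean (log2 signal) for 6 pairs of neighbouring genes, growing steers in blue and finishing steers in orange, with Pearson's r over 16 arrays above each panel. FGG and FGA lie along a line at 0.901, and C8B and C8A show no such line at 0.112.

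Over all pairs of members, the same correlations had a median of 0.313 among the 120 complement pairs, 0.138 among the 153 coagulation pairs and 0.177 among the 288 mixed pairs, against 0.0193 over all pairs of named genes with a mean above 10. These medians are descriptions, and pairs that share a gene are not independent. The lowest value was -0.723. The highest, 0.928, belonged to a complement pair outside the 10 neighbouring pairs, and mixed pairs, none of them neighbours, reached 0.875. Averaged over genes, single steers lay as far from their group mean as 0.14 below it for complement, in finishing replicate 5, and 0.11 above it for coagulation, in finishing replicate 3. The medians were not recomputed without these steers.

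Among 28 other measured genes of the complement system, 1 rose and 5 fell (21.4% called, against 8.36% of all named genes), with a median of -0.10. C3AR1, the receptor for C3a, fell by 0.73 ± 0.17 (limma adjusted p = 0.0146), and ITGAM and ITGB2, the chains of complement receptor CR3, fell by 0.60 ± 0.14 and 0.42 ± 0.11 (adjusted p = 0.0145 and 0.0254). All are known from myeloid cells, whose marker values are given above. The part of these cells in the falls was not tested. C1QA, C1QB, C1QC and VSIG4 stand both among these complement genes and among the macrophage markers, so the called shares of those lists are not independent. COLEC10, a collectin that recognises sugars and activates the lectin pathway, fell by 0.38 ± 0.08 (adjusted p = 0.0108), with 6 of 8 finishing steers below every growing steer. CPN2, a subunit of the carboxypeptidase that inactivates C3a and C5a, rose by 0.30 ± 0.06 (adjusted p = 0.0114), with 7 of 8 finishing steers above every growing steer. C1QA, a chain of the recognition protein C1q made by macrophages, fell by 0.46 ± 0.13 (adjusted p = 0.0472); its call held in only 2 of 16 fits that left out 1 array, those without finishing replicate 1 or 4. C1QA also lost it with arrays centred on their median (adjusted p = 0.0534). ITGB2 lost its call without finishing replicate 6 (adjusted p = 0.051). Among other plasma components, C4A, which supplies part of the C3 convertase, differed by 0.23 and SERPING1, the C1 inhibitor, by -0.08 (adjusted p = 0.0973 and 0.297).

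Of 27 other coagulation genes 2 fell and 0 rose, with a median of -0.09. The called share, 7.41%, was near the 8.36% of all named genes. PLAU, the urokinase that activates plasminogen, fell by 0.35 ± 0.09 (limma adjusted p = 0.0237). KNG1, the kininogen that carries prekallikrein and factor XI, ran from 13.03 to 13.11 in growing and from 12.86 to 12.97 in finishing steers without overlap and fell by 0.15 ± 0.04 (adjusted p = 0.0434). The KNG1 call held in 3 of 16 fits that left out 1 array, those without growing replicate 3, finishing replicate 3 or finishing replicate 4, and was lost with quantile normalisation (adjusted p = 0.0705). SERPINC1, antithrombin, differed by -0.02 (adjusted p = 0.826). Of 8 genes for vitamin K recycling and factor secretion 1 was called (12.5%). This was FURIN, which removes propeptides and rose by 0.39 ± 0.08 (adjusted p = 0.00636). GGCX and VKORC1, which carboxylate the factors and recycle the vitamin, differed by -0.21 and -0.17 (adjusted p = 0.393 and 0.141).

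Genes that control liver plasma proteins and other acute phase proteins gave calls in both directions. Of 17 measured liver transcription factors and signalling genes 2 fell and 0 rose (11.8% called, against 8.36% of all named genes). IL6R, the receptor of the main acute phase cytokine, fell by 0.52 ± 0.07 (limma adjusted p = 0.000996), without overlap between groups. ONECUT1, a hepatocyte factor, fell by 0.75 ± 0.21 (adjusted p = 0.0361, held in 6 of 16 fits that left out 1 array). HNF4A, a central hepatocyte factor, differed by -0.23 and STAT3, which relays the signal of interleukin 6, by 0.39 (adjusted p = 0.431 and 0.0661). Of 13 acute phase proteins 3 rose and 2 fell (38.5% called). SAA3, a serum amyloid, ITIH4, an inter-alpha-trypsin inhibitor chain, and CRP, the C-reactive protein that can activate complement, rose by 1.03 ± 0.23, 0.41 ± 0.08 and 0.29 ± 0.08 (adjusted p = 0.0134, 0.00639 and 0.0273). ITIH3, a related inhibitor chain, fell by 0.58 ± 0.14 and CD14, the endotoxin coreceptor of monocytes and macrophages, by 0.39 ± 0.11 (adjusted p = 0.0233 and 0.0499). CRP lost its call without growing replicate 2, 6 or 7 or finishing replicate 2, and CD14 kept it in 4 of 16 such fits, those without growing replicate 2 or 6 or finishing replicate 1 or 4. CRP also lost its call with ribosomal centring (0.22, adjusted p = 0.153), and CD14 with median centring and with array weights (adjusted p = 0.0526 and 0.0575). ONECUT1 held without growing replicate 4 or finishing replicate 1, 2, 3, 4 or 5. Haptoglobin (HP) had the largest difference of the list, 1.67, and did not pass (adjusted p = 0.0963). Without finishing replicates 5 and 6 together, 8 of the called related genes missed the threshold: ITGB2, C1QA, PLAU, KNG1, ONECUT1, ITIH3, CRP and CD14 (adjusted p from 0.0611 to 0.175).

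**Figure D5:**
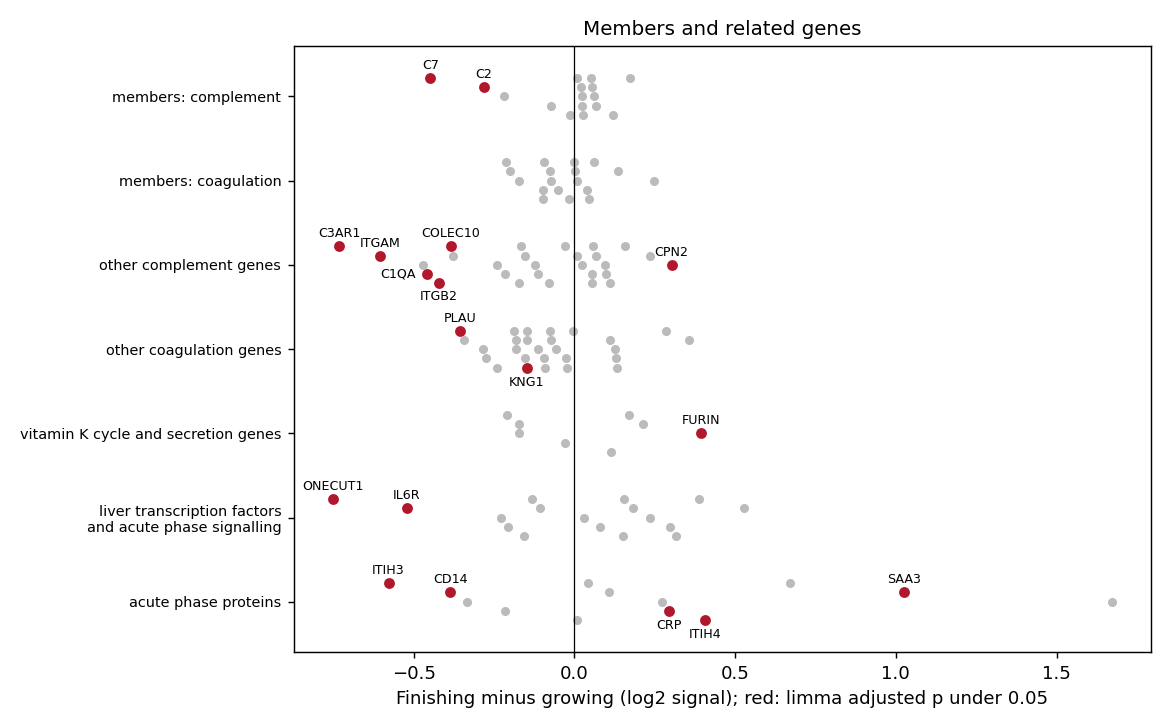
Difference between finishing and growing steers (log2 signal) for the complement and coagulation genes followed here and for 5 lists of related genes, 1 point per gene, those with a limma adjusted p under 0.05 in red and named. C7 and C2 are the called points of the top rows, and the acute phase proteins spread from -0.58 to 1.67.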

How the data were processed

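Liver RNA of 16 steers was measured on 16 arrays, and the deposited table holds 1 value per probe set and array, taken as log2 signal because it spans 1.48 to 14.1. Per the labels' protocols, RNA was extracted with Trizol and labelled as biotinylated cRNA from cDNA primed with oligo(dT). GCOS 1.2 and Partek 6.4 are named, with no role, in the submitters' processing notes; summarisation and normalisation are not given in the sources used here. Array medians lay between 5.57 and 5.64.

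Of 26773 probe sets, 18457 carried 1 symbol, 688 several and 7628 none in the platform annotation, and 17996 matched RefSeq (ARS-UCD2.0) by gene ID. That table was used for names and neighbours. Values were used as deposited and fitted across all probe sets (limma 3.58.1, R 4.3.3; linear model with moderated variances, 2-sided, Benjamini-Hochberg over all probe sets, threshold 0.05), finishing minus growing. The ± of a difference is its standard error. Correlations used Python 3.11.15.

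The members, lists, tests and rule for named genes were chosen with earlier results of these data known. All 34 members are named, as is each related gene past the threshold, up to 6 per list by p, and the 3 brightest markers of a list whose values are discussed. C4A, SERPING1, SERPINC1, GGCX, VKORC1, HNF4A, STAT3 and HP were named after their values were seen. Lists were matched by current symbol. Of the other marker lists, B and plasma cells had 1 of 9 lower, cholangiocytes 1 of 8 lower and red cells 0 of 7 called. Alternatives covered normalisation, the variance model, array weights, filters, the probe set per gene, a stricter threshold, a replicate block and arrays left out. The fit was tested on simulated data. A planned search of promoter motifs was not made, since no sequence was used here.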

Additional observations from a re-analysis of the deposited data

Results flagged for a closer look

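In a group of 8 steers, a signal was picked out when its gap to the nearest other steer as a share of the group's range exceeded Dixon's 95% critical value, which chance alone does in about 1 of 20 groups. Of 68 such groups for the 34 genes 7 were picked out, and 8 of 100 with the related genes.

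Finishing replicate 5 was low for 4 complement genes: C1R at 11.85 against 11.99 to 12.09 in the other finishing steers, C1S at 12.07 against 12.25 to 12.38, MASP1 at 9.71 against 10.18 to 10.45, and C8B at 12.01 against 12.20 to 12.33. Growing replicate 4 was low for CFI, at 12.33 against 12.47 to 12.59, and for C8B, at 11.93 against 12.13 to 12.27, and high for ITGB2, at 7.76 against 7.08 to 7.30. Growing replicate 8 was high for F5, at 12.52 against 12.37 to 12.44.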

How the results depend on the processing

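C2 and C7 kept a negative difference in all 28 alternatives, between -0.35 and -0.25 for C2 and between -0.52 and -0.41 for C7. By design the stricter threshold, variance model, probe set filters, probe set per gene and replicate block leave a member's difference unchanged. The sign under those alternatives is therefore no check. The number of complement genes lower, 2, became 0 at an adjusted p under 0.01, 1 with a replicate block and 0 without finishing replicates 5 and 6, and was 1 to 2 when 1 array was left out. The number of coagulation genes lower, 0, became 1 (F12) with centring on ribosomal protein genes, array weights, dim probe sets left out, annotated probe sets only or a gene's mean over probe sets, and was 0 to 1 when 1 array was left out. The number of members higher was 0 in every alternative for both classes.

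All probe sets called numbered 273 higher and 1792 lower with ribosomal centring, 112 and 319 at an adjusted p under 0.01, 268 and 642 with the replicate block, 288 and 654 without finishing replicates 5 and 6, and 410 to 881 higher when 1 array was left out. Related pathway genes, 2 higher and 7 lower, were 1 and 0 at an adjusted p under 0.01, 3 lower without finishing replicates 5 and 6, and 2 to 4 higher and 4 to 9 lower when 1 array was left out. The replicate numbers only name steers: deviations of same-numbered arrays correlated between -0.153 and 0.0406, no array correlated best with its own number, and with the replicate block C7 had an adjusted p of 0.0605 and C2 of 0.0471; C1QA, KNG1, ONECUT1 and CRP also missed the threshold (0.075, 0.166, 0.0756 and 0.0574).

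Differences near 0 changed sign without reaching the threshold. With quantile normalisation they were -0.013 for C3, -0.0084 for CFI, 0.0038 for F9 and -0.015 for FGA. With ribosomal centring they were -0.014 for C1R, -0.0061 for C1S, -0.047 for C3, -0.049 for CFB, -0.066 for CFI, -0.049 for C5, -0.019 for C8B, -0.053 for C8G, -0.022 for C9, -0.035 for F5, -0.027 for PROS1, -0.072 for FGA, -0.066 for FGG and -0.013 for PLG. Array weights gave -0.0057 for CFI, and leaving out finishing replicates 5 and 6 gave 0.0098 for C4BPA and 0.010 for F9. When 1 array was left out, C4BPA ran from -0.043 to 0.015, C8G from -0.010 to 0.052, CFI from -0.016 to 0.021, F9 from -0.014 to 0.012, FGA from -0.0074 to 0.011 and FGG from -0.0016 to 0.020.

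A planned exact permutation of every probe set was not run. The causes of these changes were not tested beyond the smaller number of probe sets or arrays. Signals near the top of the scale and the lack of detection calls limit what these arrays can show.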
